A study of Mus musculus with 180 samples.

Results

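The interferon regulatory factors (IRFs) are transcription factors that drive interferon and inflammatory gene programs, and 8 of their genes, Irf1, Irf2, Irf3, Irf4, Irf5, Irf7, Irf8 and Irf9, were followed here through a screen of clinical kinase inhibitors (CKIs). They were taken by gene symbol from a table of 45070 genes, and all 8 passed the filter on low values described with the first test. The 180 samples were polyadenylated RNA from wild-type bone marrow-derived macrophages of male C57/BL6 mice. Cells received 1 of 58 CKIs or the solvent DMSO for 1 h and then 10 ng/ml of the bacterial lipopolysaccharide LPS for 2 h, so the controls were stimulated too. Each CKI had 3 samples, described in the methods as independent biological replicates, and DMSO had 6, which the labels divide into 2 sets of 3. There were no unstimulated samples among those analysed, so a rise or fall is always relative to LPS with DMSO and not to resting cells. Each CKI was used at a concentration at which it bound a chosen target in a bead-based kinase assay, so the concentrations differed between CKIs. That target was often not the kinase against which the CKI had been developed, and the inhibitor classes named below are those of its development.

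All IRFs share a DNA-binding domain that recognizes GAAA repeats in interferon response elements. In a macrophage stimulated with LPS, the receptor TLR4 signals through the adaptor TRIF to the kinase TBK1, which phosphorylates IRF3 so that it switches on the interferon gene Ifnb1. Through the adaptor MyD88 it engages IRF5 at inflammatory cytokine genes. Secreted interferon then acts through its receptor and JAK kinases on STAT proteins, among them STAT2, which joins IRF9 in the complex ISGF3 to raise interferon-stimulated genes, IRF7 among them. IRF1 is itself induced by interferons and by NF-kB, IRF2 often opposes it at the same elements, and IRF8 and IRF4 act with the partner PU.1 as regulators of myeloid and lymphoid identity.

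The promoters of Irf1, Irf2 and Irf8 are shown because they were the only first-listed windows of the 8 genes that held a match to any of 3 short motifs, and because Irf1 and Irf8 are the genes on which most results below turn. Each line gives the 250 bases before the annotated start, 5′ to 3′, on the plus strand, from the RefSeq promoter table for build GRCm38.p6, in which all 8 genes had an entry. The windows lie at chr11:53769764-53770013, chr8:46739495-46739744 and chr8:120736108-120736357. Capitals mark the motif matches.
Irf1: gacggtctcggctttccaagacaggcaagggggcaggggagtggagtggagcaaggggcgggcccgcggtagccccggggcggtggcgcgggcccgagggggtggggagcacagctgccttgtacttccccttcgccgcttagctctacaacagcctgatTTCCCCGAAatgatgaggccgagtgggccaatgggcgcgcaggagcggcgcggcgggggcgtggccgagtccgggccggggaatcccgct
Irf2: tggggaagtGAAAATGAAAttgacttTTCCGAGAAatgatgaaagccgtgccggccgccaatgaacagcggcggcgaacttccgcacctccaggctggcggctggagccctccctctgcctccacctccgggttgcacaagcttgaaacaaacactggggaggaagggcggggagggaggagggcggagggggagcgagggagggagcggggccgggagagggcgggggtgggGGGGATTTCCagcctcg
Irf8: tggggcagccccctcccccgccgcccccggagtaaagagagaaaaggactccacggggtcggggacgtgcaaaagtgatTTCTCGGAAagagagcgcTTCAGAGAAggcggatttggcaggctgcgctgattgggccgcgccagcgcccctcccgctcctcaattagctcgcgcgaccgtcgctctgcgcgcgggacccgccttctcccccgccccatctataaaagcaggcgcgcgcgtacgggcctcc

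The motifs were searched on both strands in windows that also took in 50 bases after the start. They were an interferon response element core (GAAA, any 2 bases and GAAA again), a STAT-type element called GAS (TTCNNNGAA) and a kB element (GGG, any 2 bases and TTTCC). Of 32851 such windows over all genes, 3.44% held the interferon core, 8.30% the GAS letters and 1.63% the kB letters. Irf1 had 1 GAS match, TTCCCCGAA, 90 to 82 bases before the start. Irf8 had 2, TTCTCGGAA and TTCAGAGAA, starting 171 and 153 bases before it. Irf2 had an interferon core, GAAAATGAAA, 241 bases before the start, a GAS match, TTCCGAGAA, 224 bases before it, and a kB match, GGGGATTTCC, 17 bases before it. The windows of Irf3, Irf4, Irf5, Irf7 and Irf9 held none of these letters, and neither did the further windows listed for Irf1, Irf8 and Irf9. A match is a description of the letters and was not measured as binding.

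Normalized values, which the authors scaled on invariant genes and rounded, summed to 9477340 to 12273349 per sample with a median of 10521148.5. These totals come after that scaling and do not give the sequencing depth. All 7 macrophage markers were well expressed, with a summed value of 71409 to 211689, and in the DMSO samples of 82123 to 185730. The summed B cell, T cell and NK cell markers reached at most 5, 3 and 8. Of the 3 plasma cell markers only Sdc1 was present, with a mean of 444, while Jchain and Mzb1 averaged 1.56 and 0.0444. The conventional dendritic cell list summed to 33 to 161, most of it Xcr1, the neutrophil list to 197 to 2049 and the fibroblast list to 2 to 147. The share of mitochondrial transcripts lay between 0.525% and 4.47%, and in the DMSO samples between 0.759% and 1.94%. In such bulk samples, fewer cells of a type and less RNA per cell cannot be told apart.

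Irf1 was the most abundant IRF in LPS-stimulated control macrophages and Irf4 the least. Per kilobase of exon, the normalized value in DMSO was 3624 ± 393 (SD, n = 6) for Irf1, 2273 ± 368 for Irf5, 1979 ± 539 for Irf7 and 1419 ± 427 for Irf8. It was 304 ± 48.7 for Irf9, 134 ± 14.6 for Irf3, 122 ± 30.4 for Irf2 and 5.91 ± 2.05 for Irf4. The DMSO ranges of Irf5 and Irf7, of Irf7 and Irf8 and of Irf3 and Irf2 overlapped. By these ranges alone, the order within these pairs was not resolved, while the other neighbours in the order did not overlap. Both genes of a pair were read in the same sample. Irf1 exceeded Irf5 per kilobase in 178 of the 180 samples, Irf5 exceeded Irf7 in 94, and Irf7 exceeded Irf8 in 178. Irf3 exceeded Irf2 in 134, and Irf9 exceeded Irf3 in all 180. The span of Irf2 overlaps the predicted genes Gm31172 and Gm39170 on the other strand, and that of Irf5 overlaps Tnpo3 on the other strand. Whether their exons overlap was not checked. Whether strand was used in counting is not given in the sources used here. Where exons do overlap, reads of those genes could therefore not be told apart.

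The loci, in mm10, are on chromosome 11 for Irf1 (53770014 to 53778374, plus strand), on chromosome 8 for Irf2 (46739745 to 46847458, plus) and Irf8 (120736358 to 120756694, plus), and on chromosome 7 for Irf3 (44997648 to 45002848, plus) and Irf7 (141263183 to 141266424, minus). Irf4 is on chromosome 13 (30749233 to 30766981, plus), Irf5 on chromosome 6 (29526625 to 29541869, plus) and Irf9 on chromosome 14 (55603985 to 55610030, plus). All values are summed over the exons of each gene.

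**Figure D1:**
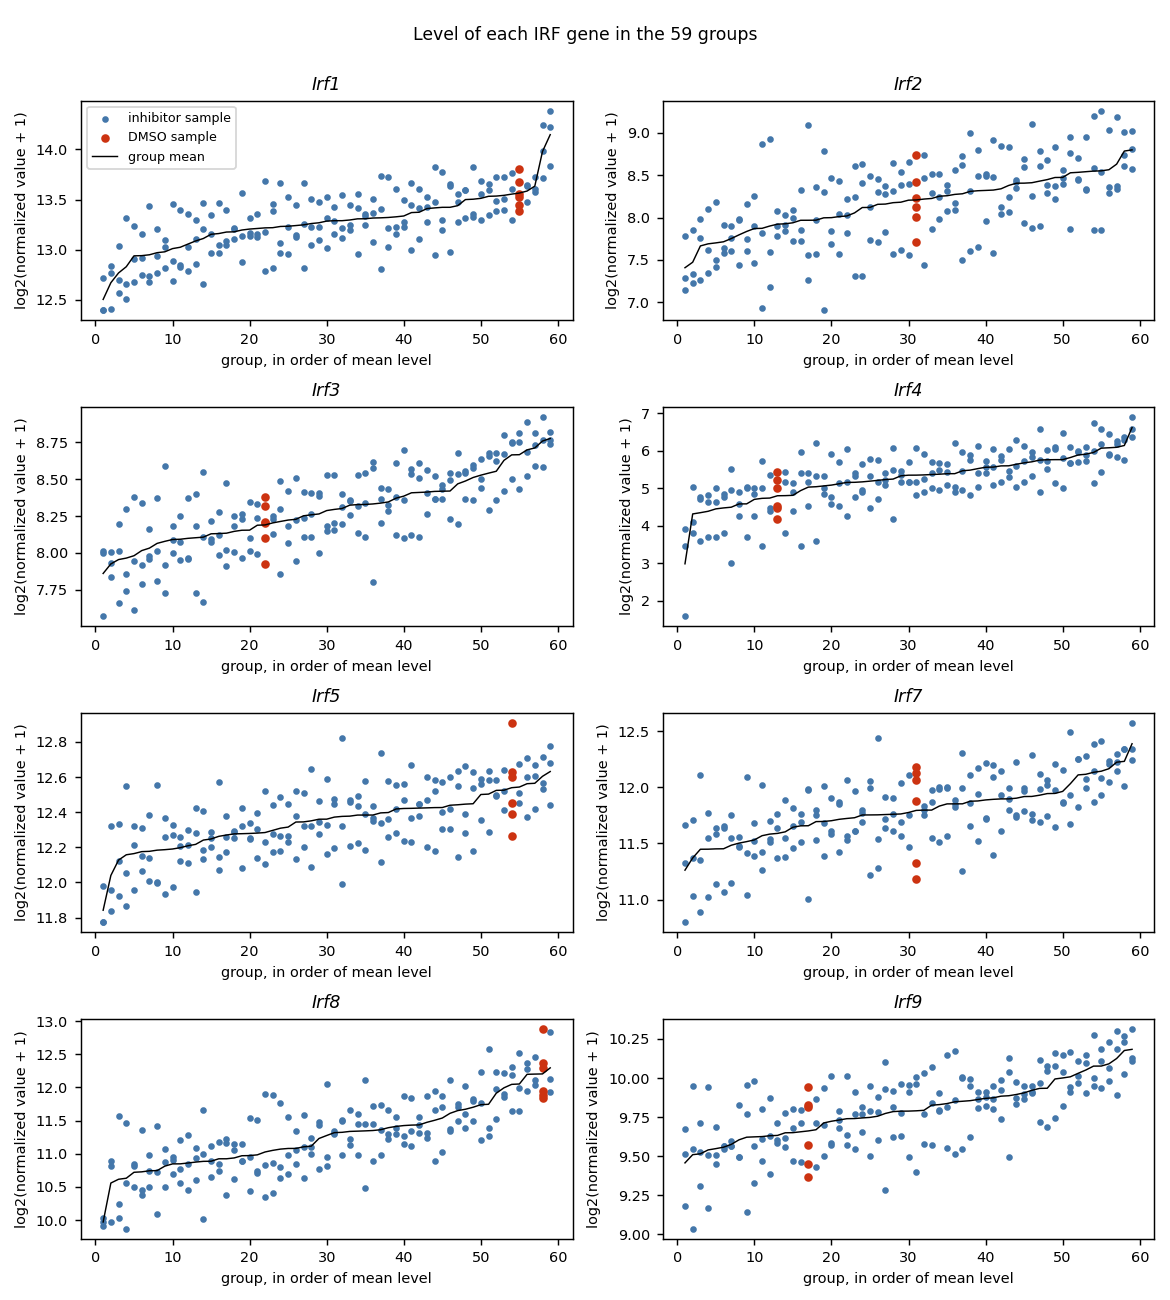
Normalized values of the 8 IRF genes on a log2 scale (y axis), in 8 panels, for every sample of the 59 groups ordered by their mean (x axis), with DMSO in red. DMSO stands near the top of the order for Irf8 and Irf1, at place 58 and 55 from the lowest, and near the middle for Irf2 and Irf7, at place 31.

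Over the 59 groups, Irf4 and Irf8 spanned the widest range of group means and Irf9 and Irf5 the narrowest. The highest group mean was 11.3-fold the lowest for Irf4, from 8.67 with Afatinib to 98.3 with PF04691502, and 5.19-fold for Irf8, from 1004 with Filgotinib to 5215 with Neratinib. It was 3.15-fold for Irf1, from 5839 with Midostaurin to 18383 with BGT226. The spans were 2.60-fold for Irf2, 2.13-fold for Irf7, 1.87-fold for Irf3, 1.73-fold for Irf5 and 1.64-fold for Irf9. In all 58 steps of each order, neighbouring groups overlapped in their samples, so the levels graded into each other for every member.

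The 58 CKIs were each set against the same 6 DMSO samples, a control that all comparisons share, by limma on log2(normalized value + 1). The fit covered the 12714 genes with a mean value of at least 10, and a gene was called at a Benjamini-Hochberg adjusted p under 0.05 over all of them. By an F test over all groups, 7 of the 8 IRFs varied between groups, against 48.6% of all genes tested, and Irf2 did not pass (adjusted p = 0.164). Of the 464 pairs of an IRF and a CKI, 14 were called higher than DMSO (3.02%) and 27 lower (5.82%). Over all genes the same shares were 2.52% higher and 1.65% lower. With DMSO as the reference, calls of higher IRF values were thus close to the background and calls of lower values stood above it. Of the 27 lower calls, 17 were in Irf8. When the samples were rescaled by the median of ratios, which moved the medians of single CKIs by up to 0.198 on the log2 scale, the background became 1.66% higher and 2.4% lower. All 41 called pairs kept their direction under that scaling and 36 stayed called.

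The called pairs fell unevenly over the genes. Irf8 was called lower with 17 CKIs and higher with 0, Irf1 lower with 5 and higher with 1, and Irf5 lower with 4 and higher with 0. Irf9 was called higher with 6 and Irf3 with 4, neither lower with any, and Irf4 was higher with 3 and lower with 1. Irf2 and Irf7 were called with 0 CKIs by limma, and 2 and 5 CKIs passed an unadjusted p of 0.05 for them. The calls came from 22 CKIs, of which 11 had at least 2 IRFs called. In 34 of the 41 pairs, all 3 samples lay beyond all 6 DMSO samples, which a call makes likely. Over all pairs of a gene and a CKI, called or not, 4.52% lay so above DMSO and 2.02% below it. Called or not, Irf8 lay wholly below DMSO with 39 CKIs, Irf1 with 15, Irf5 with 2 and Irf4 with 1. Irf3 and Irf4 lay wholly above it with 8 each, Irf9 with 5, and Irf1 and Irf7 with 1 each. The 41 pairs also stayed called with replicate number as a block, which added 17 more pairs. Under that block, the background rose to 4.6% higher and 3.08% lower.

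Because the same DMSO samples stand in every comparison, each CKI was also set against the mean of the other 57 CKI groups, a reference chosen after the values were seen. There the 8 IRFs had 13 higher and 7 lower calls, and 14 of the 41 pairs were called again. Over all genes, 1.12% of pairs were called higher and 1.54% lower with that reference. Unlike with DMSO, the share of IRF pairs called lower was then close to the background, and the share called higher stood above it. For the CKIs in which an IRF was called higher, the background of higher calls was 24.6% with BGT226, 16% with Omipalisib, 4.13% with Afatinib, 3.96% with PF04691502, 3.15% with AZD2014, 2.97% with Neratinib, 0.708% with PH797804 and 0.472% with BMS911543. For those in which an IRF was called lower, the background of lower calls was 15.3% with Filgotinib, 14.5% with Afatinib and 2.34% with Midostaurin.

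**Figure D2:**
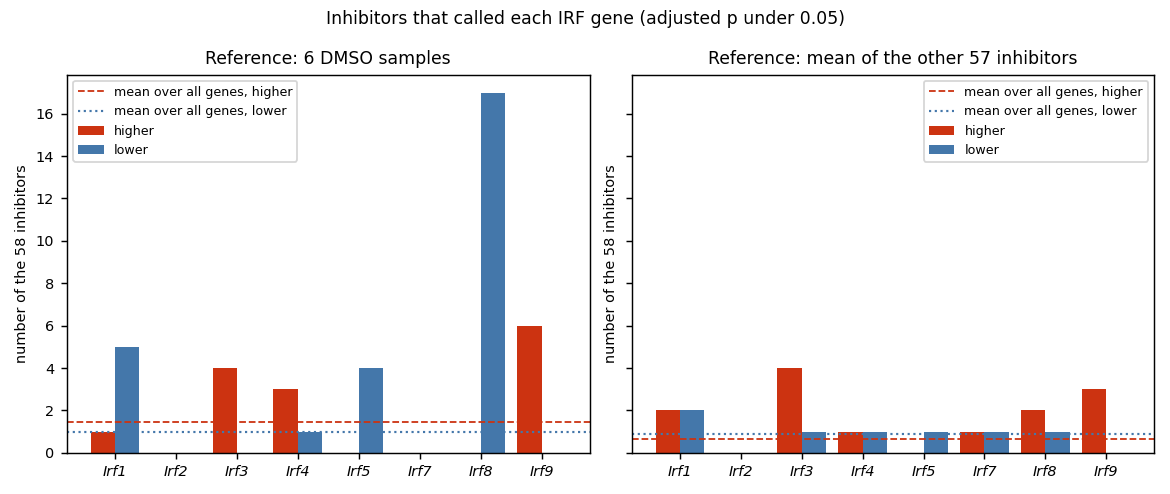
Number of the 58 CKIs (y axis) in which each IRF gene (x axis) was called higher or lower than DMSO and than the other 57 CKIs, with dashed lines at the mean over all genes tested. Irf8 stands out with 17 lower calls against DMSO and keeps 1 against the other CKIs.

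**Figure D3:**
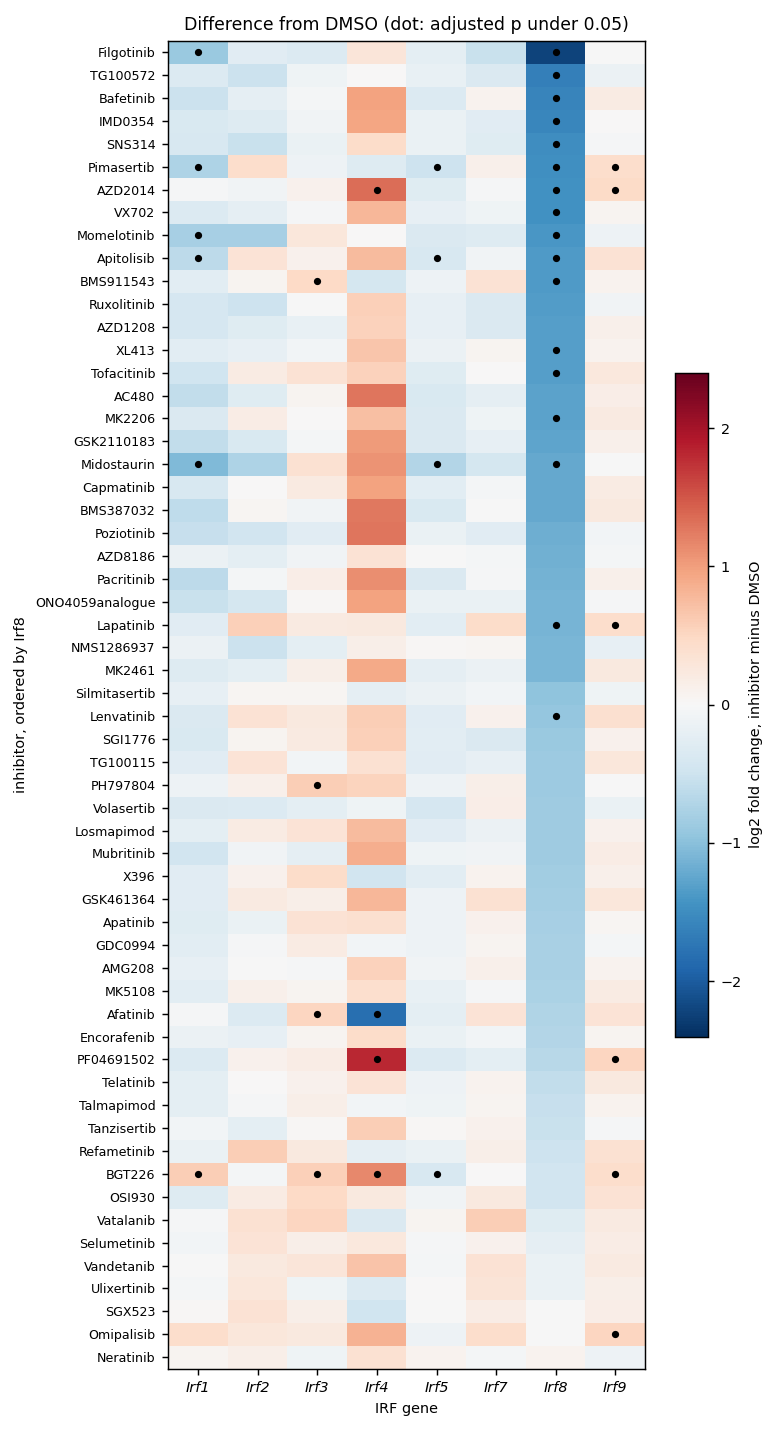
Log2 fold change against DMSO (color) of the 8 IRF genes (columns) with each of the 58 CKIs (rows, ordered by Irf8), with dots for an adjusted p under 0.05. The Irf8 column lies below 0 for 57 of the 58 CKIs and the Irf1 column for 54, whereas the Irf4 column lies above 0 for 46.

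Irf3, which encodes the factor that TBK1 activates, rose with 4 CKIs by at most 0.59 on the log2 scale and was called lower with none. In the DMSO samples its normalized value was 242 at the lowest, 294.5 at the median and 332 at the highest. With the PI3K and mTOR inhibitor BGT226 the samples read 485, 383 and 435, all above DMSO. The log2 fold change was 0.57 (SE 0.15, adjusted p = 0.00216), in a comparison in which 24.1% of all genes were called higher and 6.32% lower.

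With the p38 inhibitor PH797804 Irf3 read 427, 435 and 451, with the EGFR family inhibitor Afatinib 474, 410 and 367, and with the JAK2 inhibitor BMS911543 361, 430 and 428. All 9 of these samples were above the highest DMSO sample. The log2 fold changes were 0.59, 0.51 and 0.48 (adjusted p = 0.0186, 0.0107 and 0.0328), and the background of higher calls in the same comparisons was 0.731%, 9.06% and 0.472%. The BGT226 call held without any single replicate or DMSO sample. The PH797804 call was lost without any of its own 3 replicates or without DMSO set 2 replicate 3 (adjusted p up to 0.148), the Afatinib call without its replicate 1 or 2 (up to 0.121), and the BMS911543 call in 5 of 9 such fits (up to 0.206). The 4 pairs were also called higher against the mean of the other 57 CKIs.

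Irf5, the factor that works in the MyD88 arm, fell with 4 CKIs and was called higher with none. DMSO samples spanned 4914 to 7689 with a median of 5897.5. With the multi-kinase inhibitor Midostaurin the values were 3505, 4032 and 3498, all below every DMSO sample, and the log2 fold change was -0.70 (SE 0.13, adjusted p = 8.81e-05). In that comparison 2.63% of all genes were called higher and 1.93% lower, and the Irf5 call held in all 9 fits without a replicate or a DMSO sample.

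The other Irf5 calls overlapped the DMSO range. The MEK inhibitor Pimasertib gave 3664, 5127 and 3973 (log2 fold change -0.50, adjusted p = 0.00654), BGT226 4253, 3734 and 6002 (-0.38, 0.0199), and the PI3K and mTOR inhibitor Apitolisib 3978, 5119 and 4747 (-0.38, 0.0419). In each of these at least 1 sample lay inside the DMSO range. Genes called lower were 5.68% of all with Pimasertib and 3.2% with Apitolisib. Mitochondrial transcripts took 3.24% to 4.29% of the values in the Pimasertib samples and 1.49% to 4.04% in the Apitolisib samples, and with that share and replicate number in the model the adjusted p was 0.331 and 0.351. Without Pimasertib replicate 1 or 3, without BGT226 replicate 1 or 2 or DMSO set 2 replicate 2, and in 6 of 9 such fits for Apitolisib, the call was lost.

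Irf7, an interferon-stimulated gene that amplifies the interferon response, was called with 0 CKIs, and its DMSO samples spread widely, from 2329 to 4647 with a median of 4023.5. The JAK1 inhibitor Filgotinib gave 3240, 2568 and 1777, and its log2 fold change was -0.53 (SE 0.21, adjusted p = 0.058, and 0.02 with the replicate block). The PI3K and mTOR inhibitor Omipalisib gave 4537, 5037 and 4789, at 0.43 (adjusted p = 0.122). The KDR inhibitor Vatalanib gave 6101, 5201 and 4857, all above DMSO, at 0.59 (adjusted p = 0.329). Against the mean of the other 57 CKIs, Filgotinib was called lower at -0.54 (adjusted p = 0.0196) and Omipalisib higher at 0.44 (0.0471). Vatalanib is named after its values were seen. Irf7 differed with replicate number, with mean log2 values of 11.92, 11.82 and 11.62 in samples numbered 1, 2 and 3.

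Irf1, the interferon- and NF-kB-induced activator, fell with 5 CKIs and rose with BGT226. DMSO itself stood at place 55 from the lowest of the 59 groups. With the other 57 CKIs as the reference, Irf1 was called lower with 2 CKIs and higher with 2. Its DMSO samples read 10687 at the lowest, 11919.5 at the median and 14275 at the highest. With Midostaurin it read 6726, 5393 and 5398, and with Filgotinib 6994, 5416 and 7310. All 6 values lay far below the lowest DMSO sample. The log2 fold changes were -1.06 and -0.89 (SE 0.19, adjusted p = 1.57e-05 and 0.000123), and both calls held in every alternative tried, among them the reference of the other 57 CKIs (-0.77 and -0.60, adjusted p = 0.000125 and 0.00184). With Filgotinib 6.10% of all genes were called higher and 14.6% lower.

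Momelotinib, an inhibitor of JAK1 and JAK2, gave Irf1 values of 8427, 6075 and 6628, which is -0.80 on the log2 scale (adjusted p = 0.0103) in a comparison with few calls, 0.378% higher and 0.409% lower. Pimasertib gave 5835, 10201 and 6482 (-0.74, adjusted p = 0.00463), and Apitolisib 6870, 9139 and 7735 (-0.62, adjusted p = 0.0223). All 9 samples lay below DMSO. The Momelotinib call was lost without its replicate 3 (adjusted p = 0.268), the Pimasertib call without its replicate 1 or 3 (up to 0.0702), and the Apitolisib call without its replicate 1 or 3 or DMSO set 2 replicate 2 (up to 0.13). With the mitochondrial share in the model, the adjusted p was 0.15 for Pimasertib and 0.21 for Apitolisib.

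BGT226 was the only CKI to raise Irf1 beyond the test. Its samples read 19136, 14567 and 21447, all above DMSO, at a log2 fold change of 0.58 (SE 0.19, adjusted p = 0.0105). Without its replicate 1 or 3 the adjusted p rose to as much as 0.139, and under median-of-ratios scaling it was 0.142. Against the other 57 CKIs the difference was larger, 0.90 (adjusted p = 5.73e-07). Omipalisib, with 16261, 13403 and 19353, overlapped DMSO (0.41, adjusted p = 0.0884) and stood 0.73 above the other CKIs (8.32e-05).

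Irf8, a factor that sets myeloid identity and acts with PU.1, showed the most calls of the 8 genes, and nearly all CKIs lay below DMSO. The DMSO samples were 3944, 5289 and 5012 in set 1 and 3786, 7541 and 3680 in set 2, with a median of 4478. Of the 58 CKIs, 57 had a lower mean than DMSO on the log2 scale, with a median fold change of -0.95 over the CKIs, and 39 had all 3 samples below all 6 DMSO samples. The sets of DMSO samples did not differ in Irf8 (0.00 on the log2 scale, adjusted p = 1).

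The lowest Irf8 values were with Filgotinib, which gave 999, 1050 and 964. They were tightly grouped and 0.206 of the DMSO mean, at a log2 fold change of -2.23 (SE 0.31, adjusted p = 5.26e-09). The call held in all 9 fits without a replicate or DMSO sample and in all 12 other alternatives, and Irf8 was also lower than with the other 57 CKIs (-1.30, adjusted p = 3.23e-05).

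TG100572, developed against SRC and KDR and dosed here for the JAK family member TYK2, gave Irf8 values of 1895, 1806 and 1002, at -1.64 (adjusted p = 0.000484). In that comparison only 0.488% of all genes were called lower and 0% higher. Bafetinib, developed against ABL and LYN and dosed here for MAPKAPK3, gave 1048, 1211 and 3041, at -1.59 (adjusted p = 0.000799, background 1.89% lower), and that call was lost without its replicate 1 or 2 (up to 0.23). All 6 samples lay below DMSO, but against the other 57 CKIs the difference with TG100572 was -0.70 (adjusted p = 0.305).

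The 14 further CKIs with a lower Irf8 call ranged from -1.57 with the IKBKB inhibitor IMD0354 to -0.93 with Lenvatinib, an inhibitor of KDR and other receptor kinases. They had been developed against unlike kinases and included the Aurora inhibitor SNS314 (-1.48), the p38 inhibitor VX702 (-1.46), the mTOR inhibitor AZD2014 (-1.46), the CDC7 inhibitor XL413 (-1.32), the AKT inhibitor MK2206 (-1.28), Pimasertib (-1.48), Apitolisib (-1.36), developed against PI3K and mTOR and dosed here for JAK1, Midostaurin (-1.23), dosed here for TBK1, and Lapatinib (-1.12). The other 3 had been developed as JAK inhibitors. Genes called lower in these comparisons were 13.5% of all with AZD2014 and 5.26% with Lapatinib, but 0.834% with MK2206, 0.802% with Lenvatinib, 0.771% with XL413, 0.267% with IMD0354, 0.22% with SNS314 and 0.181% with VX702. Of the 17, all but Lenvatinib had 3 samples below DMSO, and Lenvatinib read 4263, 1978 and 1804. These names beyond the 3 largest falls are given because the calls were spread over so many targets, and were chosen after their values were seen.

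Of the 17 Irf8 calls, 6 held in all 9 fits without a replicate or DMSO sample, those with Filgotinib, TG100572, AZD2014, Apitolisib, BMS911543 and Pimasertib. The call was lost without replicate 1 of Midostaurin (adjusted p = 0.0635) or of Lapatinib (0.071) and without replicate 3 of IMD0354 (0.106). It was lost without replicate 2 or 3 of Momelotinib (up to 0.0667) and without replicate 1 or 2 of Tofacitinib (up to 0.131) or SNS314 (up to 0.333). For VX702, XL413 and MK2206 it was lost without replicate 1, replicate 2 or DMSO set 2 replicate 2 (up to 0.933, 0.78 and 0.368), and for Lenvatinib in 6 of 9 such fits (up to 0.2).

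With DMSO shared, these Irf8 calls are not independent of each other. DMSO as a whole was 0.96 higher than the mean of the 58 CKI groups on the log2 scale (12.20 against 11.25, SE 0.18, adjusted p = 0.00067), a contrast added after the values were seen, in which 1.79% of all genes were called higher in DMSO and 4.65% lower. Without DMSO set 2 replicate 2, the sample of 7541, it was 0.82 (adjusted p = 0.0415). With set 1 or set 2 alone it was 0.96 each time, with an adjusted p of 0.13 and 0.116. The count of 17 CKIs became 13 without that sample, 9 without the CKIs' replicate 1, 10 without their replicate 2, 7 in fits of only the groups compared and 25 with the replicate block. An effect that nearly all CKIs had on Irf8 and a high level in the DMSO samples cannot be told apart in this design. In the same limma contrast, DMSO was 0.30 higher for Irf1 (adjusted p = 0.071, and 0.0405 with the replicate block). For Irf5 it was 0.20 higher (0.0923, and 0.0335 with the block), so the shared control limits those lower calls too.

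Against the other 57 CKIs, Irf8 was lower with Filgotinib alone. It was higher with the ERBB inhibitor Neratinib, which read 4476, 3892 and 7276 (log2 difference 1.07, adjusted p = 0.0118), and with Omipalisib, which read 4407, 4192 and 5644 (0.97, adjusted p = 0.00167). Both overlapped the DMSO samples, from which they differed by 0.09 and 0.00 (adjusted p = 1 and 0.996).

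**Figure D4:**
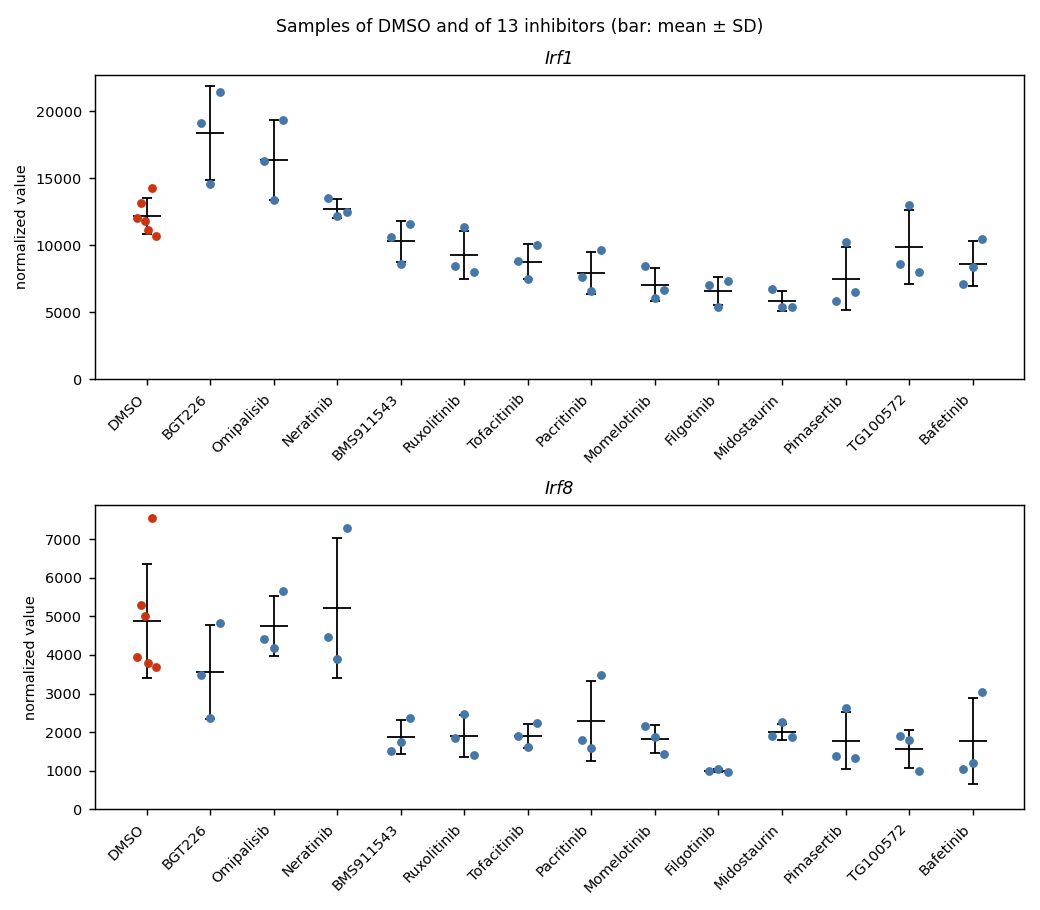
Normalized values of Irf1 and Irf8 (y axes) in every sample of DMSO and of 13 CKIs (x axis), with bars at the mean ± SD. Filgotinib is lowest for Irf8 at 964 to 1050, BGT226 is highest for Irf1 at 14567 to 21447, and Neratinib and Omipalisib stay at the DMSO level of Irf8.

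Irf9, the DNA-binding subunit of ISGF3, rose with 6 CKIs and was called lower with none. The DMSO samples ran from 659 to 983 with a median of 829.5. PF04691502, an inhibitor of PI3K and mTOR, gave 1272, 1103 and 1118, and Omipalisib 1202, 1232 and 1043. Every one of these lay above DMSO. The log2 fold changes were 0.52 and 0.51 (SE 0.15, adjusted p = 0.0125 and 0.00639), against 8.86% and 17.5% of all genes called higher in the same comparisons, and the calls were lost without PF04691502 replicate 1 (0.151) and Omipalisib replicate 2 (0.0639).

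Pimasertib gave Irf9 values of 1009, 1199 and 1069, also all above DMSO, at 0.43 (adjusted p = 0.032), in a comparison with 16% of genes called higher. Lapatinib, an EGFR and ERBB2 inhibitor, gave 1103, 1165 and 977 (0.42, adjusted p = 0.0363, 18.1% higher), AZD2014 1258, 949 and 1163 (0.46, 0.0181, 6.06% higher) and BGT226 1240, 1024 and 988 (0.41, 0.0264). The Lapatinib and AZD2014 samples overlapped DMSO, and the BGT226 samples did not. These 4 calls held in fewer of the 9 fits without a sample, 3 for Pimasertib, 4 for Lapatinib, 5 for BGT226 and 6 for AZD2014 (adjusted p up to 0.168, 0.162, 0.222 and 0.173). Over the 59 groups, Irf9 had the closest relation of the 8 genes with the mitochondrial share (Spearman's rho 0.68). With that share and replicate number in the model, the adjusted p was 0.797 for Pimasertib, 0.288 for Lapatinib and 0.0708 for PF04691502, and the count of higher Irf9 calls was 3. It was also 3 under median-of-ratios scaling or without DMSO set 1 replicate 3, 2 without DMSO set 2 replicate 2 and 1 without the CKIs' replicate 1. With the replicate block alone it was 8, Apitolisib (adjusted p = 0.0442) and Lenvatinib (0.0278) being added.

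Irf2, a repressor at many interferon elements, was called with 0 CKIs. Its DMSO samples ran from 209 to 427 with a median of 289. The lowest group was Momelotinib, with 220, 141 and 155, at a log2 fold change of -0.80 (SE 0.33, adjusted p = 0.342). The highest group mean was 448, with the MEK inhibitor Refametinib. As the SE shows, Irf2 was among the less precisely measured members, and only changes of a large size could have passed.

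Irf4, a factor best known in lymphocytes and in alternatively activated macrophages, was present at low values, with DMSO samples of 17 to 42 around a median of 26.5. PF04691502 raised it to 81, 119 and 95, and AZD2014 to 77, 82 and 53. The log2 fold changes were 1.82 (SE 0.44, adjusted p = 0.00209) and 1.34 (0.0177), and all 6 samples were above DMSO. The PF04691502 call held in every alternative that tested the gene, and the AZD2014 call was lost without its replicate 1 (0.0993).

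With BGT226 Irf4 read 63, 105 and 34, which overlapped DMSO (1.15, adjusted p = 0.0328), and the call was lost in 5 of 9 fits without a sample. Afatinib lowered it to 10, 2 and 14, all below DMSO, at -1.81 (adjusted p = 0.00104), in a comparison in which 12.8% of all genes were called lower. That call was lost without its replicate 2, the sample of 2 (0.0939). Since these are small values, a few reads move the fold changes, and Irf4 falls out of the test where a mean of 50 is required. Lymphocyte markers were near 0 in these samples, as given above.

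The 6 CKIs developed as JAK inhibitors were tested at different concentrations, so their values stand side by side without a comparison between them. Among them only Ruxolitinib, dosed for JAK2, and Pacritinib, dosed for TYK2, were set to a JAK family member in the screen, while Apitolisib, TG100572 and the Aurora inhibitor MK5108 were set to JAK1, TYK2 and JAK2. Irf8 and Irf1 lay below the DMSO mean with all 6, and Irf5 with all 6 as well. Of all 58 CKIs, Irf8 lay below it with 57, Irf1 with 54 and Irf5 with 53. These directions were therefore not particular to the JAK inhibitors. For Irf8, Filgotinib (-2.23), Momelotinib (-1.39), BMS911543 (-1.35) and Tofacitinib (-1.32) were called lower, with adjusted p values of 5.26e-09, 0.00477, 0.000561 and 0.00793. Momelotinib gave 2152, 1871 and 1446, BMS911543 1515, 1754 and 2355, and Tofacitinib 1894, 1611 and 2226. Ruxolitinib, with 1841, 2484 and 1405 (-1.34, adjusted p = 0.319), and Pacritinib, with 1786, 1592 and 3493 (-1.13, 0.0845), were not called, though all their samples lay below DMSO.

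How many genes passed in all differed between these inhibitors, which bears on the adjusted p values. BMS911543 had 0.472% of genes called higher and 8.08% lower, Tofacitinib 9.02% and 0.857%, Pacritinib 0.118% and 0.0551%, and Ruxolitinib 0% and 0%. For Irf8 the log2 fold changes of Ruxolitinib and BMS911543 were thus nearly the same, -1.34 and -1.35, with an adjusted p on opposite sides of the threshold.

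For Irf1, Filgotinib and Momelotinib were called, as given above. Pacritinib gave 7659, 6552 and 9636 (-0.63, adjusted p = 0.106) and Tofacitinib 8825, 7439 and 10035 (-0.48, 0.0717), all below DMSO. Ruxolitinib gave 8452, 11331 and 8021 (-0.40, adjusted p = 1) and BMS911543 10586, 8628 and 11607 (-0.25, 0.515), which overlapped it. With the replicate block, Pacritinib and Tofacitinib passed for Irf1 (0.0411 and 0.0456), and Pacritinib for Irf8 (0.0321).

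In the other IRFs, JAK inhibitors gave few calls. Irf3 was called higher with BMS911543 and read 312, 402 and 409 with Tofacitinib (0.35, adjusted p = 0.105) and 257, 255 and 189 with Filgotinib (-0.33, 0.115), which was called lower against the other 57 CKIs (-0.44, adjusted p = 0.00693). Irf5 changes ran from -0.36 with Pacritinib to -0.11 with BMS911543, Irf9 changes from -0.11 to 0.26, Irf7 changes from -0.53 to 0.34 and Irf2 changes from -0.80 to 0.20, with 0 calls. Irf4 read 68, 58 and 52 with Pacritinib, above DMSO (1.11, adjusted p = 0.179), and changes with the other 5 ran up to 0.57.

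Apitolisib, BGT226, Omipalisib and PF04691502, developed against PI3K and mTOR, and AZD2014, developed against mTOR, also differed in concentration, and none was dosed for PI3K or mTOR in the screen. They were set side by side because they recurred among the called pairs, a choice made after the values were seen. Irf3, Irf4 and Irf9 lay above the DMSO mean with all 5, and Irf5 and Irf8 below it. Most CKIs shared these directions. Of all 58, Irf3 lay above DMSO with 37, Irf4 with 46 and Irf9 with 42, and Irf5 lay below it with 53 and Irf8 with 57. Irf9 was called higher with 4 of these 5 inhibitors and reached 963, 985 and 1147 with Apitolisib (0.35, adjusted p = 0.0929). Of all genes, 24.1% were called higher with BGT226, 17.5% with Omipalisib, 8.86% with PF04691502 and 6.06% with AZD2014. Since the inhibitors were chosen for recurring among the called pairs, such counts follow in part from that choice. Irf4 was called with 3, and changes with the other 2 were 0.84 with Omipalisib and 0.76 with Apitolisib.

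Irf1 and Irf8 were called with some of these 5 inhibitors and not with others. Irf1 was called higher with BGT226 and lower with Apitolisib, while AZD2014, with 13566, 10741 and 11648, differed from DMSO by -0.02 (adjusted p = 0.954). Irf8 was lower with AZD2014, at 2023, 1717 and 1450 (-1.46, adjusted p = 0.000102), and with Apitolisib, at 1656, 1977 and 1909 (-1.36, 0.00876). It read 3488, 2376 and 4822 with BGT226 (-0.46, adjusted p = 0.257) and 3756, 3348 and 2092 with PF04691502 (-0.66, 0.127), and was at the DMSO level with Omipalisib. The difference of Irf1 or Irf8 between these inhibitors was not tested.

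The pathway around the IRFs was described with 44 further genes in 5 roles, all of which were tested. All calls and shares of these genes are relative to the same shared DMSO samples. Calls of a gene with many CKIs are therefore not independent of each other, as for Irf8. The shares by role were not computed with the other 57 CKIs as the reference. Whether a high level in the DMSO samples adds to the lower calls was not tested. In the receptor and adaptor arm to IRF3, 9 genes had 3.83% of their pairs called higher and 0.958% lower, against 2.52% and 1.65% over all genes, for which the median gene was called with 2 CKIs. The TRIF partner adaptor Ticam2 changed in the most comparisons, higher with 4 CKIs and lower with 3. It read 757 to 908 with Omipalisib and 137 to 168 with Pimasertib, against 294 to 465 in DMSO (log2 fold changes 1.12 and -1.33, adjusted p = 4.41e-10 and 1.15e-11). Tank, a TBK1 scaffold, was higher with 4 CKIs, and the LPS co-receptors Cd14 and Ly96 with 3 each.

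In the MyD88 arm, 6 genes had 2.3% of pairs called higher, which is below the 2.52% over all genes, and 4.31% lower, against 1.65%. Myd88 itself was lower with 10 CKIs, most with Filgotinib, where it read 2161 to 2497 against 3534 to 4548 in DMSO (log2 fold change -0.71, adjusted p = 3.89e-06). The kinase genes Irak2 and Irak1 were each called higher with 4. Irak2 reached 2031 to 2484 with BGT226 against 1281 to 1541 in DMSO (0.71, adjusted p = 1.35e-10).

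Among 8 genes of interferon and its receptor, 1.94% of pairs were called higher and 6.25% lower, against 2.52% and 1.65% over all genes. Of the 29 lower pairs, 10 were of the receptor gene Ifnar1 and 7 of the JAK-STAT inhibitor Socs1, and the other 6 genes had 1 to 4 each. The median log2 fold change over the CKIs was -0.25 for Ifnar1 and -0.91 for Socs1. Among the 8 genes, this median was positive for Ifnb1 alone (0.84). These lower calls thus share the limit of the common control. Ifnb1, the direct target of IRF3, was higher with 9 CKIs and lower with 1. Its DMSO samples read 75 to 262 with a median of 92.5. Omipalisib gave 1727, 2207 and 726 (log2 fold change 3.67, adjusted p = 1.37e-13) and Midostaurin 11, 7 and 12 (-3.36, adjusted p = 1.12e-10), beyond DMSO on opposite sides. Irf3 was called with neither of these CKIs. Momelotinib gave Ifnb1 values of 55, 65 and 58, all below DMSO, but was not called (-0.87, adjusted p = 0.414). The paper, which tested with DESeq2, reports reduced Ifnb1 with Momelotinib. Socs1 fell to between 57 and 115 with AZD2014, against 618 to 5735 in DMSO (-4.55, adjusted p = 4.24e-11).

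Stat2, the partner of IRF9 in ISGF3, was lower with Filgotinib, at 639, 510 and 627 against 1001 to 2636 in DMSO (-1.39, adjusted p = 0.000127). Irf9 itself changed by -0.01 with Filgotinib (adjusted p = 0.968).

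Among 9 IRF partners and modulators, 2.11% of pairs were called higher and 1.72% lower, close to the 2.52% and 1.65% over all genes. Batf, a partner of IRF4 and IRF8, was higher with 7 CKIs and reached 413 to 598 with Midostaurin against 148 to 310 in DMSO (1.22, adjusted p = 0.000563). Irf2bp2, an IRF2-binding corepressor, was higher with 4, most with PF04691502, at 229 to 331 against 27 to 136 (1.78, adjusted p = 0.00257). Spi1, which encodes PU.1, was lower with 4, most with AZD2014, at 1346 to 1985 against 2042 to 3540 (-0.71, adjusted p = 0.00268).

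The 12 textbook targets of IRFs and ISGF3 had 1.58% of pairs called higher and 3.02% lower, against 2.52% and 1.65% over all genes. Cmpk2, an antiviral nucleotide kinase, was lower with 7 CKIs and higher with 0. Rsad2, which encodes viperin, was lower with 3 and higher with 2, and the RNA sensor Ifih1 lower with 3 and higher with 1. With Midostaurin, Rsad2 read 4672, 3097 and 3921 against 18749 to 36278 in DMSO (-2.88, adjusted p = 3.34e-14), and with Omipalisib it reached 71241 to 92964 (1.55, adjusted p = 8.49e-06). With Midostaurin, Stat2 (-0.66, adjusted p = 0.213) and the ubiquitin-like Isg15 (-0.56, adjusted p = 0.644), named after its values were seen, were not called, and Irf8 was at -0.28 against the other 57 CKIs (adjusted p = 0.839).

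How the members moved together was described by Spearman's rho over the 59 group means. These groups share replicate numbers, the scaling and a range of mitochondrial shares, so the values carry no test. Irf1 and Irf8 were the closest pair of IRFs, with rho 0.72 (Pearson's r 0.70, and 0.75 without the 2 farthest groups). Irf1 and Irf5 followed at 0.64, Irf2 and Irf9 at 0.63 and Irf2 and Irf7 at 0.58. Irf4 ran opposite to Irf5 and Irf7, each at -0.43. With the mitochondrial share, Irf2 stood at 0.53, Irf5 at -0.51 and Irf1 at -0.31, and the other members apart from Irf9 between -0.06 and 0.16.

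**Figure D5:**
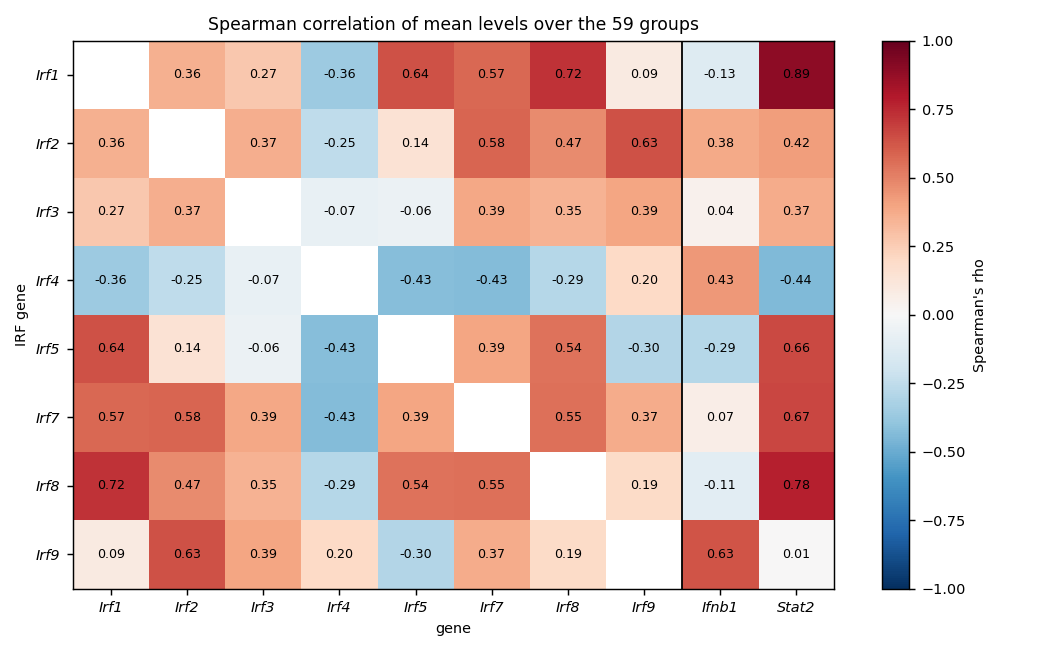
Spearman's rho (color) over the 59 group means between the 8 IRF genes, and of each with Ifnb1 and Stat2. Irf1 stands at 0.89 with Stat2, and the relation of Irf9 to Ifnb1 is 0.63.

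Ifnb1 and Stat2 tracked the IRFs differently. Ifnb1 had a rho of 0.63 with Irf9 and 0.43 with Irf4, and values near 0 with Irf3 (0.04), Irf7 (0.07), Irf8 (-0.11) and Irf1 (-0.13). Stat2 had 0.89 with Irf1, 0.78 with Irf8, 0.67 with Irf7 and 0.01 with Irf9.

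The 3 genes most like each member over the 59 groups were Stat2, Tap1 and Tor3a for Irf1 (all 0.89), Zbp1 (0.90), Gbp6 (0.86) and 1600014C10Rik (0.86) for Irf7, and Anxa7 (0.93), Trim12a (0.91) and Cd86 (0.91) for Irf9. They were Brd2 (0.83), Marchf5 (0.81) and Max (0.81) for Irf8, Il10ra (0.83), Rnf139 (0.83) and Nod1 (0.82) for Irf5, and 9930111J21Rik2 (0.89), Fcgr4 (0.88) and Gm12185 (0.87) for Irf2. For Irf3 they were Cd82 (0.79), Slc2a6 (0.73) and Grap (0.73), and for Irf4 Bhlhe40 (0.78), Rabgef1 (0.75) and Klf10 (0.73). Of these 24 genes, 11 were also among the 3 most alike over the 180 samples after each replicate number was centred.

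Replicate number moved 6 of the 8 IRFs by an F test with the group in the model, against 82.9% of all genes, with Irf1 (adjusted p = 0.0943) and Irf8 (0.475) as the exceptions. Irf2 averaged 8.40, 7.99 and 8.11 on the log2 scale in samples numbered 1, 2 and 3, Irf5 12.25, 12.36 and 12.44, and Irf9 9.90, 9.77 and 9.72. The DMSO sets differed in none of the 8 genes, and by limma in 0 of all 12714, with 310 genes (2.44%) at an unadjusted p under 0.05.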

How the data were processed

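RNA-seq was analysed in 180 samples, mapped to 58 CKI groups of 3 and a DMSO group of 6 by their labels. The authors aligned reads to mm10 with TopHat2 (2.1.1), removed reads in blacklisted regions with bedtools (2.29.2), counted reads on exons of curated RefSeq genes with R/Bioconductor packages, scaled them on invariant genes and rounded them. The deposited values are therefore treated as a score made by the authors from scaled exonic reads, called normalized values, and not as counts, so limma (3.58.1, R 4.3.3) on log2(value + 1) with a variance trend replaced a count test. A fold change is on that scale and understates changes of low genes. All 59 groups entered 1 fit over the 12714 genes with a mean of at least 10. On simulated data, it found 68 of 100 genes changed by 1 log2 unit and 100 of 100 changed by 2. The simulated noise was independent between samples and had no replicate-number effect, so the fit was not checked under such an effect. The p-values measure the spread between these samples. The named pairs were up to 3 called CKIs a direction per gene with samples beyond DMSO, and the 6 JAK inhibitors. The 3 most similar genes and up to 3 pathway genes a role were named too, and some genes of the pathway are not reported here. The members, lists and rules were chosen with earlier results of these data known.

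Replicate numbers come from the labels. Deviations were taken from the mean of each group. The correlation of deviations of same-numbered CKI and DMSO samples averaged 0.314 and exceeded 0.1 for all 3 numbers in 34 of 58 comparisons. For different numbers it averaged -0.157, which follows from the centring, since deviations within a group sum to 0. That value is therefore not a separate check of pairing. The fit with a replicate block is given as an alternative.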

Additional observations from a re-analysis of the deposited data

How the results depend on the processing

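Of the 41 pairs called against DMSO, 6 were called in every alternative and left-out sample that tested the gene: Irf1 with Filgotinib and Midostaurin, Irf3 with BGT226, Irf4 with PF04691502, Irf5 with Midostaurin and Irf8 with Filgotinib. The 14 higher calls became 9 with median-of-ratios scaling, 6 with DMSO set 1 alone, 8 with set 2 alone and 6 in fits of only the groups compared. The 27 lower calls became 17, 18 and 12 with set 1 alone, set 2 alone and only the groups compared, and 7 against the other CKIs. In that last setting, chosen after seeing the data, Irf8 with Lenvatinib turned to a log2 difference of 0.0294. With the replicate block, the lower calls rose to 42 and the IRFs that varied over the groups to 8. The block added 17 pairs, 9 of them in comparisons whose numbers pair: Irf8 with AC480, AZD1208, AZD8186, BMS387032, Capmatinib, NMS1286937 and TG100115, and Irf9 with Apitolisib and Lenvatinib. It ended no call. Leaving out 1 replicate or DMSO sample gave 4 to 16 higher calls, 15 to 34 lower calls and 4 to 7 varying IRFs. The lowest of these counts came without the CKIs' replicate 1, with 4 higher and 15 lower calls. Without DMSO set 2 replicate 2 there were 8 and 20, and without DMSO set 1 replicate 3 there were 9 higher calls. With the mitochondrial share in the blocked fit, 11 of the 41 calls were lost. Without the filter 35 pairs stayed called, and with a pseudocount of 0.5 or 10 all 41. Small changes in Irf2 and Irf4, which had the widest spread, were not detectable with this number of samples.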
